A study of Mus musculus with 18 samples.

Results

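Of the 54232 genes in the read count table, 10 encode the NF-kB transcription factor subunits and a set of proteins that regulate the same pathway: the subunits Nfkb1, Nfkb2, Rel, Rela and Relb, the inhibitors Nfkbia and Nfkbie, and the signalling regulators Tnfaip3, Birc3 and Traf1. They were picked by gene symbol, through the Ensembl identifier of each row, and all 10 were among the 17074 genes with enough reads to be tested. RNA was sequenced from dendritic cells (DCs), the antigen-presenting cells that carry material from the gut wall to its draining lymph node, of C57BL/6J mice labelled CD11a KO. Itgal encodes CD11a, which pairs with CD18 to form the adhesion receptor LFA-1. The 18 libraries form 6 groups of 3: CD11b+ DCs, CD103+ DCs and double-positive (DP) DCs that carry CD11b and CD103, each from the small intestinal lamina propria (LP) and from intestinal lymph node (LN). Every group carried the same knockout label, no wild-type library was analysed here, and the labels give no age, sex or infection for these mice. Nothing in the labels says that the 3 libraries of a group came from separate animals, so the p-values below measure the spread between these libraries, which may be partly technical.

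NF-kB factors are dimers of 5 related subunits. In the canonical pathway, signals from Toll-like, interleukin-1 and TNF receptors activate the IKK complex, which marks IkB proteins such as IkBa (Nfkbia) and IkBe (Nfkbie) for destruction and frees dimers of p50 (from Nfkb1) with RelA or c-Rel. In the non-canonical pathway, receptors such as CD40 and the lymphotoxin beta receptor stabilise the kinase NIK (Map3k14), which is otherwise degraded by a complex of TRAF2, TRAF3 and cIAP proteins (Birc2, Birc3), and p100 (Nfkb2) is processed to p52, the partner of RelB. Many genes of the circuit are themselves NF-kB targets, so that Nfkbia, Nfkbie and the ubiquitin-editing enzyme A20 (Tnfaip3) act as feedback inhibitors. In DCs, c-Rel and RelB are known for their part in maturation, the switch that accompanies migration from tissue to node.

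Because several of the genes below are known targets of the factors they regulate, the sequences before their transcription starts were searched for the 10-base NF-kB (kappaB) consensus, on both strands and with overlapping matches allowed. In the RefSeq table of mouse promoters (build GRCm38.p6, 250 bases before to 50 bases after each start), 8 of the 10 genes had an entry. The consensus was present in 5 of these 8 (Nfkb2, Rel, Nfkbia, Nfkbie and Tnfaip3) and was not found in the windows of Rela, Birc3 and Traf1. Among all promoters 1480 of 32851 windows (4.50%) and 5.14% of genes held a match, and 7 of the 11 windows of these genes did. The promoters of Rel, Nfkbia and Nfkbie, which hold a match and lie outside the gene as Ensembl annotates it (apart from the first base of Rel), are printed 5′ to 3′ on the strand of the gene, with the matches in capitals, and each runs over the 250 bases before the start (Rel, minus strand, chr11:23770970-23771219; Nfkbia, minus strand, chr12:55492648-55492897; Nfkbie, plus strand, chr17:45555450-45555699).
Rel: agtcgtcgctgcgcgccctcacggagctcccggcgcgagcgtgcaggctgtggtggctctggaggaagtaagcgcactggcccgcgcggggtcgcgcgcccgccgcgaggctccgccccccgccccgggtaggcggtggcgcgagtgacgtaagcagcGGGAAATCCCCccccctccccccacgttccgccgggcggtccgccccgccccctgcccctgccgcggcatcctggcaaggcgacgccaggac
Nfkbia: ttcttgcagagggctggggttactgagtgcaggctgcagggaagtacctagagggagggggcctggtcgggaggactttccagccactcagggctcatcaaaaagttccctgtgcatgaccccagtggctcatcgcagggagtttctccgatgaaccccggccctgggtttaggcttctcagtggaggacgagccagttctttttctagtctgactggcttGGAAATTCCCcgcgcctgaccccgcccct
Nfkbie: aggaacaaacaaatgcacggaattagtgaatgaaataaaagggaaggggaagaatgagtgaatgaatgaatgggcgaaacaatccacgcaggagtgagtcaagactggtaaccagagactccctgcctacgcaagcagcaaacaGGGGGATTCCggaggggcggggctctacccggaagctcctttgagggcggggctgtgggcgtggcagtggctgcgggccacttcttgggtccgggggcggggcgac
In Rel, matches on both strands overlap in GGGAAATCCCC, which lies 92 to 82 bases before the start. The match of Nfkbia (GGAAATTCCC, read on the opposite strand) lies 29 to 20 bases before its start and that of Nfkbie (GGGGGATTCC) 106 to 97 bases before. The RefSeq windows of Tnfaip3 (minus strand, chr10:19015411-19015660) and Nfkb2 (plus strand, chr19:46304487-46304736) reach into the gene as Ensembl annotates it, so only their matches are given. Tnfaip3 held GGGACACCCC at 125 to 116 bases and GGAAATCCCC at 12 to 3 bases before the start. Nfkb2 held GGGAATTCCCC at 39 to 29 bases and GGGGCTTTCC at 11 to 2 bases before its start, with further single matches in the windows of its other starts. A match is a run of letters and not evidence of binding.

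Each library held 23574292 to 46901985 counted reads (median 27356482). The targeted gene, Itgal, had 153 to 1239 reads per library, or 6.45 to 26.6 CPM (counts scaled to a common library size); without a wild-type library and with the deleted part not given in the sources used here, this does not check the label. The DC transcription factor Zbtb46 was at 161 to 260.0 CPM throughout, but the 5 DC genes together (Zbtb46, Flt3, Itgax, H2-Ab1 and Cd74) summed to 63610 to 77682 CPM in LP, 18951 to 19452 CPM in LN CD103+ DCs and 35703 to 46266 CPM in the other LN groups. The 5 genes of type 2 conventional DCs summed to 2161 to 3100 CPM in LP CD11b+ DCs against 770 to 1206 CPM in LN, and to 2634 to 3050 CPM in LP DP DCs against 201 to 244 CPM in LN. The 5 genes of type 1 conventional DCs summed to 7588 to 7977 CPM in LP CD103+ DCs against 1905 to 1979 CPM in LN. RNA of the gated antigens was low in LN: Itgae, which encodes CD103, was at 92.1 to 1440 CPM in LP and 5.57 to 49.1 CPM in LN, and Itgam, which encodes CD11b, was at 63.2 to 76.4 CPM in LP DP DCs and 4.84 to 5.76 CPM in LN DP DCs. Xcr1, a marker of type 1 conventional DCs, was at 1391 to 1410 CPM in LP CD103+ DCs and 94.8 to 103 CPM in LN CD103+ DCs. The libraries of the tissues also stood apart in sex-linked RNA. Xist, expressed from the inactive X chromosome of female cells, was at most 0.286 CPM in LP and 15.3 to 89.1 CPM in LN, whereas Y-linked Ddx3y was at 50.04 to 74.4 CPM in LP and at most 0.351 CPM in 7 of the 9 LN libraries. The third LN CD11b+ library (Ddx3y 58.0 CPM) and the third LN DP library (52.2 CPM) carried both, so tissue and the sex of the mice cannot be told apart, and results that rest on these 2 libraries are also given without them.

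Comparison of LN with LP asked how DCs that carry the same subset label differ between tissue and node. The subset markers given above differed between the tissues, and whether a label names the same population in both was not tested. The non-canonical subunit Relb (ENSMUSG00000002983, chr7:19606217-19629438 on GRCm38) was higher in LN in every subset, and the whole set of LN libraries lay above the whole set of LP libraries. In LP, Relb was at 184, 176 and 182 CPM in CD11b+ DCs, 79.8, 72.7 and 93.8 CPM in CD103+ DCs and 119.5, 162 and 129 CPM in DP DCs. In LN the same subsets were at 748, 893 and 1020 CPM, 2048, 2031 and 2079 CPM and 2329, 2267 and 2532 CPM. The log2 fold change of LN over LP was 2.29 ± 0.13 (SE) in CD11b+ DCs (adjusted p = 1.5e-09), 4.64 ± 0.14 in CD103+ DCs (adjusted p = 1.6e-13) and 4.12 ± 0.14 in DP DCs (adjusted p = 1.0e-12), that is 4.91-fold, 25.0-fold and 17.3-fold, by edgeR quasi-likelihood tests adjusted over all genes.

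Nfkb2 (ENSMUSG00000025225, chr19:46304320-46312385), which encodes the p100 precursor of the RelB partner p52, was at 148, 175 and 158 CPM in LP CD11b+ DCs and 280.1, 310.0 and 350.4 CPM in LN CD11b+ DCs. It was at 107, 106 and 98.8 CPM in LP CD103+ DCs against 844, 813 and 719 CPM in LN. In DP DCs the values were 121, 143 and 122 CPM in LP and 610.0, 589 and 732 CPM in LN. No LP library reached an LN library of its subset. The difference passed both limits of a call (adjusted p under 0.01 and a fold over 2) in CD103+ DCs (log2 2.93 ± 0.11, adjusted p = 1.8e-12) and DP DCs (2.32 ± 0.11, adjusted p = 3.2e-11), and in CD11b+ DCs it lay just under the fold limit (0.97 ± 0.11, adjusted p = 2.6e-06), which it passed without the second LP CD11b+ library (1.03), without the first LN CD11b+ library (1.04) and with total counts (1.10). Exons of Nfkb2 share 299 bases (6.52% of its exon length) with Psd on the opposite strand, and the counting did not use strand as far as the study's methods say; Psd itself was at 2.07 to 4.07 CPM in LP and 6.12 to 25.8 CPM in LN.

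Among the canonical subunits, Rela and Rel rose in CD103+ and DP DCs, whereas Nfkb1 fell in DP DCs. Rela (ENSMUSG00000024927, chr19:5637483-5648130), the main transactivating subunit, was at 165, 180.1 and 138 CPM in LP CD11b+ DCs, 134, 152 and 138 CPM in LP CD103+ DCs and 157, 156 and 153 CPM in LP DP DCs. The LN values were 201, 228 and 222 CPM, 562, 514 and 502 CPM and 516, 467 and 513 CPM in the same order. The LP groups of Rela were thus close together, and the LN CD103+ and DP libraries stood above all others. Its log2 fold change was 1.89 ± 0.09 in CD103+ DCs (adjusted p = 2.8e-11) and 1.68 ± 0.09 in DP DCs (adjusted p = 1.5e-10), and 0.43 ± 0.09 in CD11b+ DCs, below the fold limit.

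Rel (ENSMUSG00000020275, chr11:23736847-23770970), which encodes c-Rel, the subunit best known from lymphocytes and maturing DCs, was at 96.7, 54.3 and 69.2 CPM in LP CD11b+ DCs, 37.5, 36.7 and 45.3 CPM in LP CD103+ DCs and 80.4, 108.2 and 97.4 CPM in LP DP DCs. In LN the values were 93.4, 120.0 and 126 CPM, 128, 125 and 173 CPM and 198, 185 and 229 CPM. The CD11b+ groups overlapped and the other pairs did not. The rise was 1.83 ± 0.19 on the log2 scale in CD103+ DCs (adjusted p = 3.7e-07) and 1.10 ± 0.19 in DP DCs (adjusted p = 9.3e-05); the DP value fell below the fold limit in 3 of 27 alternative settings, which ranged from 0.92 to 1.200 (0.99 without the third LN DP library and 0.99 without the first LP DP library).

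Nfkb1 (ENSMUSG00000028163, chr3:135584655-135691547), which encodes the p105 precursor of p50, was at 338, 374 and 285 CPM in LP CD11b+ DCs, 87.9, 96.7 and 98.2 CPM in LP CD103+ DCs and 231, 254 and 304 CPM in LP DP DCs. In LN it was at 305, 221 and 275 CPM, 60.2, 57.5 and 64.2 CPM and 59.1, 60.6 and 66.98 CPM. The highest levels were thus in LP CD11b+, LN CD11b+ and LP DP DCs, and the lowest in LN CD103+ and LN DP DCs, whose ranges overlapped. Nfkb1 fell by 2.08 ± 0.13 on the log2 scale in DP DCs (4.22-fold lower in LN, adjusted p = 6.7e-10). The log2 difference was -0.64 ± 0.13 in CD103+ DCs (adjusted p = 3.1e-04, under the fold limit) and -0.32 ± 0.12 in CD11b+ DCs (adjusted p = 0.052, ranges overlapping).

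**Figure D1:**
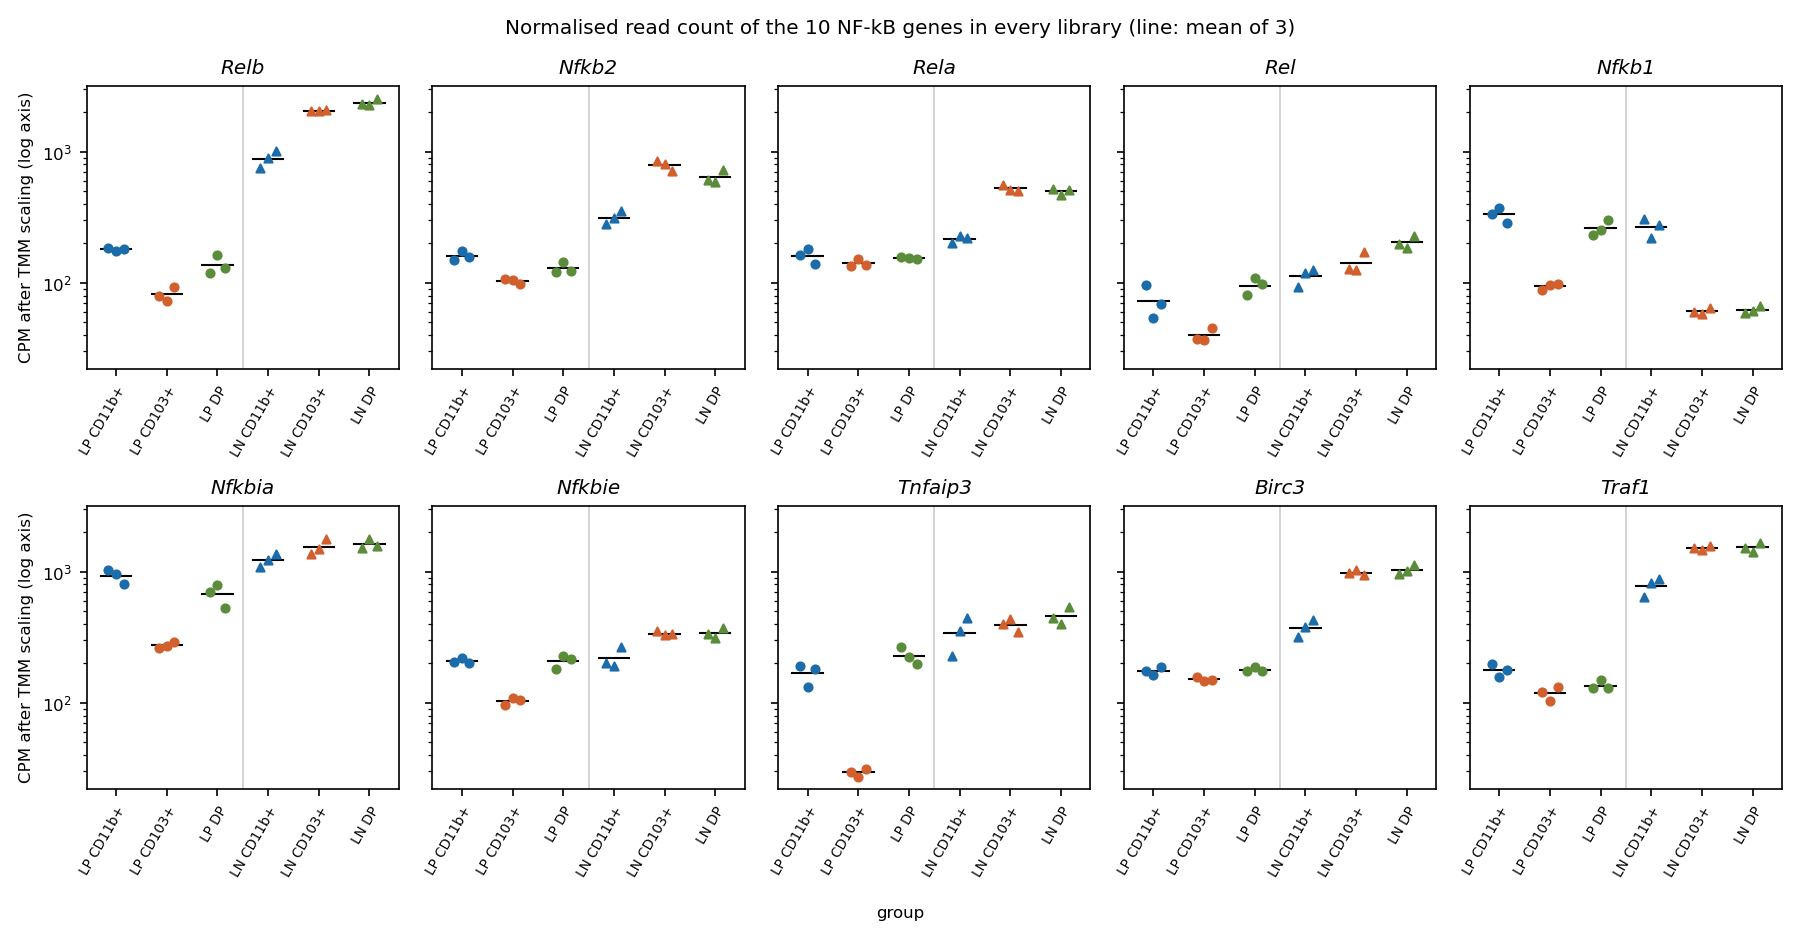
Normalised read count (CPM after TMM scaling, log axis) of the 10 genes in each of the 18 libraries, by group; circles are LP libraries, triangles LN libraries, colours the DC subsets (blue CD11b+, orange CD103+, green DP) and lines the mean of 3. Relb lies between 72.7 and 184 CPM in LP and between 748 and 2532 CPM in LN, while Nfkb1 is lowest in LN CD103+ and LN DP DCs.

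The feedback inhibitors had their largest fold changes in CD103+ DCs, whose LP libraries had the lowest levels of all. Nfkbia (ENSMUSG00000021025, chr12:55489410-55492647), the prototype IkB, was the most abundant of the 10 genes in every LP group as CPM per kilobase of transcript. It was at 1026, 955 and 806 CPM in LP CD11b+ DCs, 263, 273 and 292 CPM in LP CD103+ DCs and 704, 798 and 528 CPM in LP DP DCs. The LN libraries had 1087, 1233 and 1364 CPM, 1367, 1494 and 1775 CPM and 1508, 1778 and 1573 CPM. The LP CD103+ libraries stood far below the other LP groups, and the LN groups were closer together. The log2 fold change was 2.48 ± 0.15 in CD103+ DCs (adjusted p = 3.3e-10) and 1.26 ± 0.14 in DP DCs (adjusted p = 1.0e-06); in CD11b+ DCs it was 0.40 ± 0.14 (adjusted p = 0.033), without a call.

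Nfkbie (ENSMUSG00000023947, chr17:45555703-45563169), a second IkB that holds RelA and c-Rel dimers, was at 204, 218 and 202 CPM in LP CD11b+ DCs, 97.2, 109.6 and 106 CPM in LP CD103+ DCs and 183, 228 and 217 CPM in LP DP DCs. Its LN levels were 199.9, 192 and 265 CPM, 353, 328 and 333 CPM and 336, 315 and 372 CPM. It passed both limits in CD103+ DCs (1.70 ± 0.12 on the log2 scale, adjusted p = 1.5e-09). The value in DP DCs was 0.70 ± 0.11 (adjusted p = 4.4e-05), and the value in CD11b+ DCs, 0.07 ± 0.11 with overlapping ranges, took the opposite sign without the third LN CD11b+ library (−0.09).

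Tnfaip3 (ENSMUSG00000019850, chr10:19000910-19015657), which encodes the ubiquitin-editing enzyme A20, had the widest range of the inhibitors. It was at 192, 132 and 181 CPM in LP CD11b+ DCs, 29.6, 27.4 and 31.6 CPM in LP CD103+ DCs and 265, 226 and 197 CPM in LP DP DCs. In LN it was at 229, 355 and 446 CPM, 401, 433 and 346 CPM and 441, 399 and 543 CPM, and these 3 groups overlapped in order of level. The difference between tissues was 13.3-fold in CD103+ DCs (log2 3.74 ± 0.22, adjusted p = 3.0e-10). In CD11b+ DCs (1.03 ± 0.20, adjusted p = 6.8e-04) and DP DCs (1.01 ± 0.20, adjusted p = 3.6e-04) it lay at the fold limit. The CD11b+ call was lost in 4 of 27 alternative settings, with 0.79 without the third LN CD11b+ library and 0.88 without the second LP CD11b+ library. The DP call was lost in 13 of 27 (0.83 to 1.13), with 0.86 without the third LN DP library, 0.91 without the third LP DP library and values just under 1 without other single libraries.

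The TRAF and cIAP genes rose in all subsets. Birc3 (ENSMUSG00000032000, chr9:7848699-7873186), which encodes cIAP2, a ubiquitin ligase of the TNF receptor and NIK-degrading complexes, was at 174, 164 and 186 CPM in LP CD11b+ DCs, 158, 148 and 150.1 CPM in LP CD103+ DCs and 175, 187 and 174 CPM in LP DP DCs. In LN it was at 317, 379 and 428 CPM, 981, 1023 and 940.2 CPM and 965, 1012 and 1131 CPM, above every LP library. The log2 fold changes were 1.10 ± 0.10 (adjusted p = 2.2e-07), 2.69 ± 0.10 (adjusted p = 1.4e-12) and 2.54 ± 0.10 (adjusted p = 4.4e-12) in CD11b+, CD103+ and DP DCs, and the CD11b+ value was 0.99 without the third LN CD11b+ library. Traf1 (ENSMUSG00000026875, chr2:34941750-34961772), a TNF receptor adaptor that binds the cIAPs, was at 196, 157 and 178 CPM in LP CD11b+ DCs, 122, 103 and 133 CPM in LP CD103+ DCs and 129, 148 and 129 CPM in LP DP DCs. The LN libraries were at 638, 819 and 878 CPM, 1530, 1469 and 1584 CPM and 1526, 1427 and 1649 CPM. Every LN library of Traf1 lay above every LP library, and LN CD103+ and LN DP DCs overlapped. Its log2 fold changes were 2.13 ± 0.13 (adjusted p = 2.7e-09), 3.68 ± 0.14 (adjusted p = 1.1e-12) and 3.50 ± 0.13 (adjusted p = 2.8e-12).

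Counted over the 10 genes, 4 were called higher in LN in CD11b+ DCs (Relb, Tnfaip3, Birc3 and Traf1), where 10.3% of all genes tested were called higher. In CD103+ DCs 9 were called higher (all but Nfkb1) against 19.8% of all genes. In DP DCs 8 were called higher (all but Nfkb1 and Nfkbie) against 18.6%, and 1 lower (Nfkb1) against 13.6%. The median log2 fold change of the 10 genes was 0.80, 2.59 and 1.47 in the 3 subsets, against 0.03, 0.04 and 0.07 over all genes. The genes higher in all 3 subsets were Relb, Tnfaip3, Birc3 and Traf1 (4 of 10, against 7.21% of all genes). Without the third LN CD11b+ library, and likewise without both libraries that carry Xist and Ddx3y, the count in CD11b+ DCs and the count over all 3 subsets were each 2 (Relb and Traf1). Using total counts without scaling moved the median of all genes by 0.14, -0.21 and -0.17 on the log2 scale in CD11b+, CD103+ and DP DCs.

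**Figure D2:**
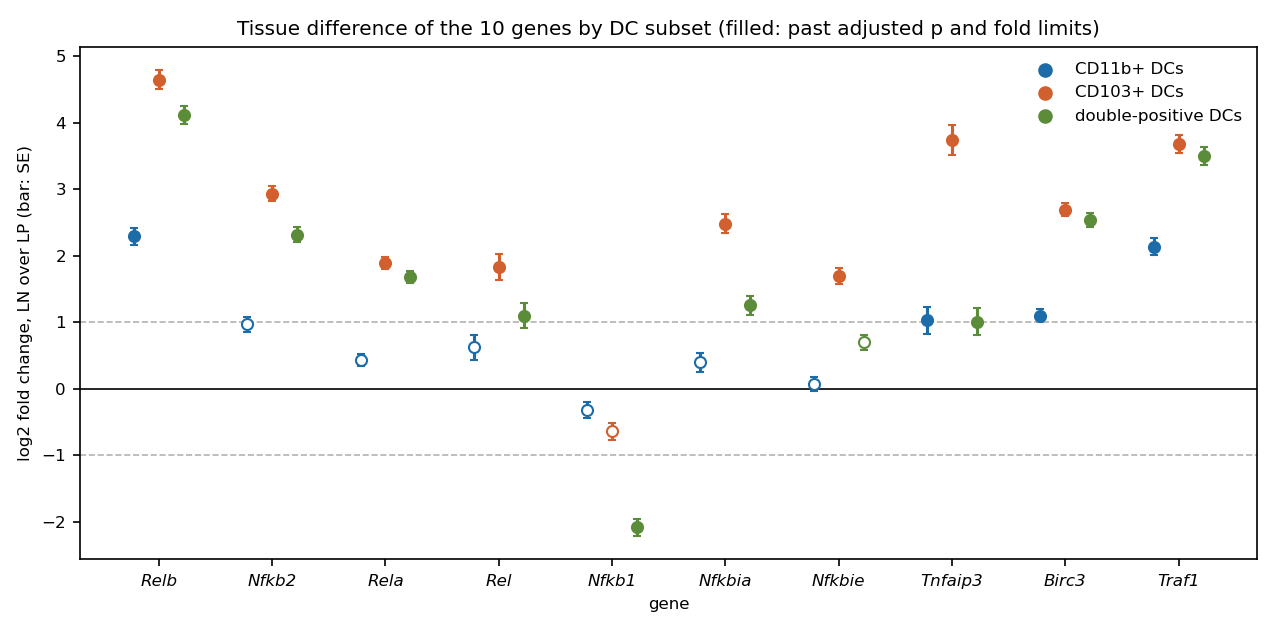
Log2 fold change of LN over LP for the 10 genes in CD11b+ (blue), CD103+ (orange) and DP (green) DCs, with bars for the SE and dashed lines at the fold limit; filled points passed the adjusted p and fold limits. Relb runs from 2.29 to 4.64, and Nfkb1 is the gene below 0 in each subset.

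Other measured features moved with tissue as well. Of 9 DC maturation genes (Relb left out), 8 were called higher in LN in each subset, and Cd86, a costimulatory molecule gene, was called lower in CD103+ DCs (557 ± 76.5 CPM in LP and 148 ± 7.57 CPM in LN). Their summed level was 827 to 2616 CPM in LP, 3786 to 6138 CPM in LN CD11b+ DCs, 28132 to 29379 CPM in LN CD103+ DCs and 22944 to 25193 CPM in LN DP DCs. Ccr7, the chemokine receptor that guides DCs to the node, was at 25.4 to 194 CPM in LP and 1024 to 11978 CPM in LN, lowest there in the CD11b+ group. The summed level of 10 T-cell genes was 7.38 to 41.4 CPM in LP and 291 to 660.1 CPM in LN, that of 7 B-cell genes 8.01 to 44.7 CPM and 37.0 to 160.5 CPM, and none of the T-cell genes was at 0 throughout a group. The 7 macrophage genes summed to 37.1 to 1455 CPM in LP and 9.7 to 449.8 CPM in LN, with Fcgr1 at 0 in LN CD103+ DCs, and the 7 epithelial genes to 25.1 to 178 CPM and 6.41 to 12.3 CPM, with Muc2 at 0 in LN CD11b+ and LN CD103+ DCs. Among 20 genes known to respond to tissue dissociation, 3, 5 and 5 were called higher and 2, 7 and 9 lower in LN in CD11b+, CD103+ and DP DCs. Over all genes tested, the shares in the same order were 10.3%, 19.8% and 18.6% higher and 4.93%, 15.1% and 13.6% lower. The counts of maturation genes stand against the same shares. The part of these features in the NF-kB differences was not tested. In bulk RNA, fewer cells that express a gene and less RNA per cell cannot be told apart.

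The balance of subunits within a library does not depend on scaling. As CPM per kilobase of the principal transcript, Relb made up 29.1% ± 2.46 (SD, n = 3) of the signal of the 5 subunits in LP CD11b+ DCs, 24.6% ± 2.85 in LP CD103+ DCs and 26.1% ± 2.65 in LP DP DCs. In LN its share was 60.5% ± 2.64, 66.0% ± 1.46 and 71.4% ± 0.536, so that no LP group came near an LN group. Relb and Nfkb2 together held 47.1% ± 3.05, 46.6% ± 2.22 and 43.4% ± 3.42 in LP and 75.6% ± 2.6, 83.9% ± 0.461 and 85.0% ± 0.519 in LN. The share of Nfkb2 itself was 18.1% ± 1.38, 21.98% ± 1.5 and 17.3% ± 0.984 in LP and 15.1% ± 0.0621, 17.9% ± 1.27 and 13.6% ± 0.741 in LN, so the gain of the non-canonical pair lay in Relb.

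The share of Rela was highest in LP CD103+ DCs at 34.6% ± 2.23, against 20.9% ± 1.37 in LP CD11b+ DCs and 24.2% ± 2.08 in LP DP DCs, and it was 12.1% ± 0.95, 13.7% ± 0.611 and 12.2% ± 0.582 in LN although its CPM rose there. Nfkb1 held 28.5% ± 1.96 in LP CD11b+ DCs and 27.0% ± 3.28 in LP DP DCs, 15.2% ± 0.498 in LP CD103+ DCs and 9.93% ± 2.33 in LN CD11b+ DCs, but only 1.05% ± 0.0641 in LN CD103+ and 1.0% ± 0.0319 in LN DP DCs. Rel stayed the smallest or second smallest share, between 1.35% ± 0.27 in LN CD103+ DCs and 5.37% ± 0.396 in LP DP DCs. With the length of all annotated exons in place of the principal transcript, a choice added after seeing the data, the shares changed in size (Nfkb1 in LP CD11b+ DCs, 16.04%; Relb in LN DP DCs, 64.6%), and the non-canonical pair held 42.6% to 47.7% in LP and 73.2% to 79.4% in LN.

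**Figure D3:**
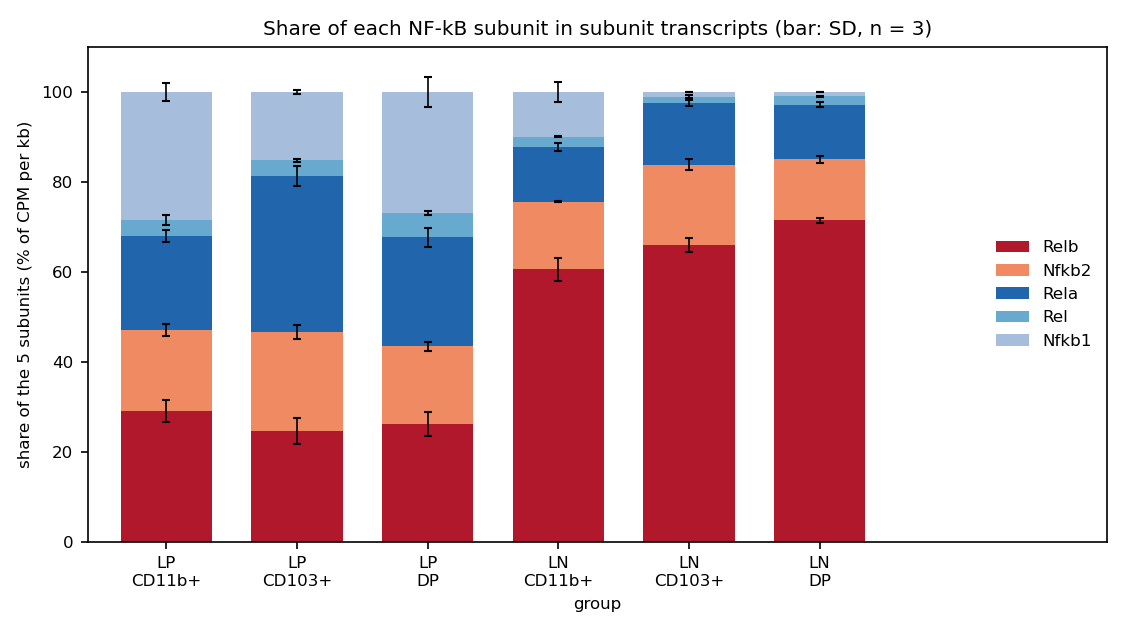
Mean share of each NF-kB subunit in the summed CPM per kilobase of the 5 subunits, by group (DP, double-positive), with bars for the SD of 3 libraries drawn at the top of each segment. The Relb segment covers 24.6% to 29.1% in LP and 60.5% to 71.4% in LN, and the Nfkb1 segment nearly disappears in LN CD103+ and LN DP DCs.

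Ratios of read counts within a library need no length for a comparison between groups, although the size of a single ratio depends on the lengths of both genes. The log2 ratio of Relb to Rela was -1.07 to 0.40 across the 9 LP libraries and 1.87 to 2.30 across the 9 LN libraries. Within LN it differed little between subsets, with 2.02 ± 0.16 (SD) in CD11b+ DCs, 1.97 ± 0.09 in CD103+ DCs and 2.25 ± 0.07 in DP DCs. The ratio of Relb to Rel was 0.40 to 1.70 in LP and 2.90 to 4.02 in LN. Relb was also higher relative to Nfkbia in LN. The ratio of Relb to Nfkbia was -2.56 to -1.64 in LP, -0.54 to -0.42 in LN CD11b+ DCs and 0.23 to 0.69 in LN CD103+ and LN DP DCs.

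The ratio of the precursors, Nfkb2 to Nfkb1, separated subset as well as tissue. It was -1.05 ± 0.17 in LP CD11b+ DCs and -1.02 ± 0.25 in LP DP DCs, 0.14 ± 0.14 in LP CD103+ DCs, 0.24 ± 0.32 in LN CD11b+ DCs, and 3.71 ± 0.19 and 3.37 ± 0.08 in LN CD103+ and LN DP DCs. In this ratio DP DCs thus lay with CD11b+ DCs in LP and beside CD103+ DCs in LN. Subset markers also differed by tissue, with means given for CD11b+, CD103+ and DP DCs in turn. Irf8 was at 151, 4650 and 83.6 CPM in LP and 405, 1615 and 689 CPM in LN. Xcr1 was at 13.4, 1400 and 25.7 CPM in LP and 46.2, 97.6 and 75.5 CPM in LN. Irf4 was at 62.7, 5.52 and 69.2 CPM in LP and 40.7, 26.6 and 41.8 CPM in LN. Their part in this ratio was not tested. The ratio of Nfkbia to Rela, the inhibitor to a subunit it holds, was 2.53 ± 0.12 in LP CD11b+ DCs, 0.96 ± 0.12 in LP CD103+ DCs and 2.10 ± 0.29 in LP DP DCs. In LN it was 2.497 ± 0.11, 1.55 ± 0.27 and 1.70 ± 0.20, so it hardly moved between tissues in CD11b+ DCs, was higher in LN in CD103+ DCs and reached lower values in LN in DP DCs, where the ranges of LP (1.79 to 2.36) and LN (1.55 to 1.93) overlapped.

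**Figure D4:**
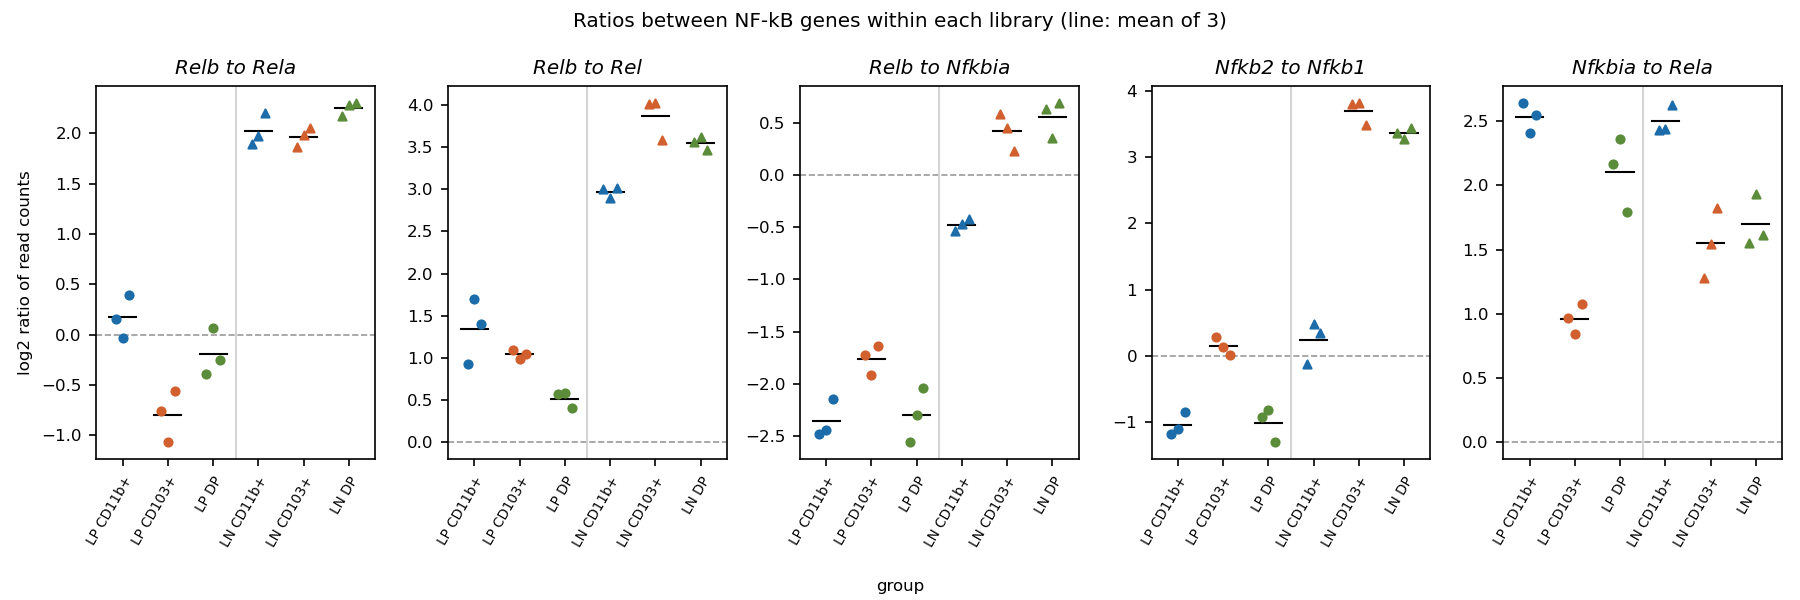
Log2 ratio of the read counts of paired NF-kB genes in each library, by group, with LP libraries as circles, LN libraries as triangles and a line at the mean of 3; each panel has its own vertical axis and the dashed line marks equal counts. Relb to Rela lies between -1.07 and 0.40 in LP and between 1.87 and 2.30 in LN, and Nfkb2 to Nfkb1 reaches 3.82 in LN CD103+ DCs.

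Within LP, the question was how the subsets differ within the gut wall. CD103+ DCs had lower levels than CD11b+ DCs of 4 of the 10 genes, namely Nfkb1 (fell by 1.82 ± 0.13 on the log2 scale, adjusted p = 8.5e-09), Relb (-1.14 ± 0.12, adjusted p = 1.6e-06), Nfkbia (-1.75 ± 0.15, adjusted p = 6.0e-08) and Tnfaip3 (-2.51 ± 0.21, adjusted p = 7.2e-08), where 10.6% of all genes were called lower. None was called higher. Tnfaip3 was 5.7-fold lower. Nfkbie lay at the fold limit (-0.999 ± 0.11, adjusted p = 2.3e-06) and passed it in 11 of 28 alternative settings, among them the fit with the replicate number as a block (−1.0009, adjusted p under the limit, 5 genes called) and those without the first or the third LP CD11b+ library (−1.01 and −1.02) or the second or the third LP CD103+ library (−1.03 and −1.0030). Rel (-0.88 ± 0.19) passed it without the second LP CD11b+ library (−1.06). Rela (-0.18 ± 0.09) and Birc3 (-0.20 ± 0.10) had adjusted p-values of 0.13 and 0.11.

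DP DCs in LP were set against each of the other subsets. Against CD103+ DCs, 5 were called higher (Nfkb1, 1.48 ± 0.13; Rel, 1.26 ± 0.19; Nfkbia, 1.29 ± 0.14; Nfkbie, 1.01 ± 0.11; Tnfaip3, 2.96 ± 0.22 on the log2 scale, with adjusted p from 1.3e-08 to 6.0e-05), against 8.1% of all genes. The call of Nfkbie was lost in 7 of 28 alternative settings (0.94 to 1.10), with 0.94 and 0.98 without the second or the third LP DP library, 0.96 without the first LP CD103+ library and 0.99 without any of the LN CD11b+ libraries. Against CD11b+ DCs, edgeR called 0 of the 10, with log2 differences from -0.46 (Nfkbia) to 0.45 (Tnfaip3), where 4.81% of all genes were called in either direction. Of these genes 6 had an unadjusted p under 0.05 and 3 an adjusted p under 0.05, and DESeq2 also called 0. These comparisons share the DP libraries.

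Other features moved with the same subsets. The 20 dissociation-response genes summed to 9439 to 10791 CPM in LP CD103+ DCs, against 19407 to 21847 CPM in LP CD11b+ DCs and 21479 to 25701 CPM in LP DP DCs. The 7 macrophage genes summed to 37.1 to 44.6, 631 to 1455 and 283 to 319 CPM in the same groups, with none at 0 throughout a group. The 4 plasma cell genes summed to 272 to 474 CPM in LP CD103+ DCs, 1424 to 1825 CPM in LP CD11b+ DCs and 253 to 265 CPM in LP DP DCs, again with none at 0 throughout a group. Their part in the LP differences was not tested.

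Within LN, the subsets were compared in the same way. CD103+ DCs had higher levels than CD11b+ DCs of Nfkb2 (1.34 ± 0.11, adjusted p = 2.1e-08), Rela (1.28 ± 0.09, adjusted p = 5.1e-09), Relb (1.21 ± 0.12, adjusted p = 3.8e-07) and Birc3 (1.39 ± 0.10, adjusted p = 3.9e-09), 4 of 10 where 10.2% of all genes were called higher. Nfkb1 was 4.4-fold lower (-2.14 ± 0.13, adjusted p = 7.1e-10), where 15.6% were called lower. Traf1 lay just under the fold limit (0.97 ± 0.12, adjusted p = 4.0e-06). Of these 5 calls, 4 were lost with total counts and no scaling factor, which moved the median of all genes by -0.43. Nfkb1 was still called, and Nfkb2 (0.91), Rela (0.84), Relb (0.78) and Birc3 (0.96) stayed above 0 but under the fold limit. With DESeq2 size factors 6 genes were called.

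DP DCs differed from CD11b+ DCs in LN in the same 5 genes: Nfkb2 (1.04 ± 0.11), Rela (1.200 ± 0.09), Relb (1.42 ± 0.12) and Birc3 (1.47 ± 0.10) were higher, with adjusted p from 6.4e-09 to 8.1e-07 and 6.92% of all genes called higher, and Nfkb1 was lower (-2.10 ± 0.13, adjusted p = 3.1e-09, 9.82% called lower). Both comparisons use the same CD11b+ libraries, so this overlap is not independent. With total counts the median of all genes moved by -0.37 and 3 remained (Relb, Birc3 and Nfkb1). Nfkb2 was also under the fold limit without the first LN CD11b+ library (0.94) and without the third LN DP library (0.92). Between DP and CD103+ DCs in LN, edgeR called 0 of the 10 (-0.30 for Nfkb2 to 0.52 for Rel, with 6.53% of all genes called in either direction), 2 had an unadjusted p under 0.05 and DESeq2 also called 0. Over the same groups, the 9 maturation genes summed to the values given above, lowest in LN CD11b+ DCs, and the 7 macrophage genes to 278 to 449.8 CPM in LN CD11b+ DCs, 9.7 to 13.8 CPM in LN CD103+ DCs and 78.4 to 82.8 CPM in LN DP DCs. The 4 plasma cell genes summed to 1210 to 1337 CPM in LN CD11b+ DCs and 190.1 to 507 CPM in the other LN groups. The 20 dissociation-response genes summed to 16228 to 19672 CPM in LN CD11b+ DCs, 7999.5 to 10355 CPM in LN CD103+ DCs and 11479.5 to 14848.5 CPM in LN DP DCs. The part of these genes was not tested.

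Whether the tissue difference itself differed between subsets was tested in the same fit. By the F test over the 3 subsets all 10 genes passed adjusted p under 0.01, against 31.5% of all genes. On leaving out 1 library at a time, 9 to 10 of them passed. Between CD103+ and CD11b+ DCs the tissue differences of 9 genes differed by more than 2-fold (all but Nfkb1), each larger in CD103+ DCs, against 18.5% of all genes called in either direction. The largest was Tnfaip3 (2.71 ± 0.29 on the log2 scale, adjusted p = 1.3e-06), followed by Relb (2.35 ± 0.18, adjusted p = 2.7e-08) and Nfkbia (2.08 ± 0.20, adjusted p = 4.7e-07). Between DP and CD11b+ DCs, 6 differed (Relb, Birc3, Traf1, Nfkb2 and Rela, more so in DP DCs, and Nfkb1, which fell further), against 11.6%. Between DP and CD103+ DCs, 3 differed (Tnfaip3, -2.73 ± 0.29; Nfkb1, -1.44 ± 0.18; Nfkbia, -1.23 ± 0.20), against 8.37%. These tests share libraries with each other and with the comparisons above. Total counts moved the median of all genes by -0.36 and -0.31 in the comparisons with CD11b+ DCs, where Rel (0.85) and Rela (0.94) then lay under the fold limit, and Rel was also under it without the first LP CD11b+ library (0.96).

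The rest of the pathway was read from lists of other genes. Over all genes tested, 10.3%, 19.8% and 18.6% were called higher in LN in CD11b+, CD103+ and DP DCs. The shares called lower were 4.93%, 15.1% and 13.6%. The counts of every list below stand against these shares, and some lie near them. Of 11 IKK and upstream kinases, 1 rose and 0 fell in LN in CD11b+ DCs. In CD103+ DCs 5 rose and 2 fell, and in DP DCs 3 rose and 0 fell. The list medians were 0.20, 0.99 and 0.66 on the log2 scale. Map3k14, which encodes NIK, the kinase of the non-canonical pathway, had log2 fold changes of 0.67, 2.498 and 2.20 in CD11b+, CD103+ and DP DCs, with calls in CD103+ and DP DCs. Its mean level was 47.7 ± 2.25 CPM in LP CD103+ DCs and 269.5 ± 19.8 CPM in LN CD103+ DCs. Ikbke, an IKK-related kinase, was called in all 3 subsets at a low level (6.02, 0.196 and 1.87 CPM in LP and 25.9, 14.9 and 17.2 CPM in LN, for CD11b+, CD103+ and DP DCs in turn).

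Of 19 adaptors, 5 rose and 3 fell in CD11b+ DCs, 8 rose and 3 fell in CD103+ DCs and 7 rose and 5 fell in DP DCs, so both directions occurred. The genes higher in every subset were Birc2, which encodes cIAP1 (log2 2.02, 3.60 and 3.47 in CD11b+, CD103+ and DP DCs), Tank (1.19, 3.32 and 2.495), Traf2 (1.64, 2.46 and 2.62) and Traf3 (1.06, 2.68 and 2.29). Birc2, Traf2 and Traf3 encode parts of the complex that degrades NIK. Card9 (-1.498, -1.04 and -1.72), a scaffold that leads from C-type lectin receptors to IKK, was lower in every subset; over all genes 2.4% were lower in all 3 subsets.

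Among 6 other IkB proteins, 0 rose and 0 fell in CD11b+ DCs, 2 rose and 0 fell in CD103+ DCs and 2 rose and 2 fell in DP DCs. Nfkbib, which encodes IkBb, had log2 fold changes of 0.26, 2.46 and 1.61 and Bcl3, a nuclear IkB that pairs with p50 and p52, of 0.97, 2.32 and 2.12 in CD11b+, CD103+ and DP DCs, with calls in CD103+ and DP DCs. The nuclear IkB genes Nfkbid (0.32, 0.34 and -1.47) and Nfkbiz (-0.59, 0.39 and -1.74) were called lower in LN in DP DCs and not called in the other subsets. Of 12 ubiquitin editing and other restraining genes, 2 rose and 1 fell in CD11b+ DCs, 6 rose and 1 fell in CD103+ DCs and 4 rose and 1 fell in DP DCs. Of the A20-binding partners, Tnip1 had log2 fold changes of 0.64, 1.67 and 1.002, with calls in CD103+ and DP DCs, Tnip2 of 0.01, 0.38 and 0.57 without a call, and Tnip3 of -1.97, 3.19 and 0.07, called lower in CD11b+ DCs and higher in CD103+ DCs. Otud7b, a deubiquitinase of TRAF3 (2.23, 1.96 and 4.597), and Nlrc5 (1.99, 1.88 and 3.09) were higher in every subset. Otud7b was at a low level, with means of 2.30, 6.38 and 0.444 CPM in LP and 10.8, 24.9 and 10.8 CPM in LN.

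Receptors and ligands moved in both directions. Of 9 receptors, 6 rose and 3 fell in CD11b+ DCs, 6 rose and 1 fell in CD103+ DCs and 6 rose and 3 fell in DP DCs. Cd40, a receptor of the non-canonical pathway engaged by T cells, rose by 1.503, 3.83 and 2.96 on the log2 scale in CD11b+, CD103+ and DP DCs, from 79.1, 64.9 and 97.0 CPM in LP to 224, 922 and 752 CPM in LN. Tnfrsf1b, which encodes a TNF receptor, rose by 1.71, 4.17 and 3.21. Tnfrsf9, a costimulatory TNF receptor family gene, rose in every subset and was at 1.9, 4.49 and 4.31 CPM in LP and 107, 537 and 597 CPM in LN. Tnfrsf4, another such gene, rose likewise and was at 1.7, 5.21 and 3.69 CPM in LP and 73.6, 720.5 and 399 CPM in LN, and Il1r1, the interleukin-1 receptor gene, was at 3.84, 0.135 and 0.741 CPM in LP and 20.0, 1.95 and 7.31 CPM in LN. Ltbr, which encodes the lymphotoxin beta receptor, went the other way (-1.05, -0.45 and -1.28, called in CD11b+ and DP DCs), and Tnfrsf13c, the BAFF receptor gene, was lower in every subset (-1.13, -1.66 and -2.999).

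Of 7 ligands, 6 rose and 1 fell in CD11b+ DCs, 5 rose and 1 fell in CD103+ DCs and 5 rose and 1 fell in DP DCs. Of the 5 higher in every subset, 4 had mean levels of at most 1.11 CPM in LP, and mean levels are given for CD11b+, CD103+ and DP DCs in turn. Tnfsf11, which encodes RANKL, was at 0.821, 0.058 and 0.0824 CPM in LP and 11.6, 3.24 and 5.93 CPM in LN. Cd40lg, the CD40 ligand gene, was at 0.422, 0.163 and 0.258 CPM in LP and 9.69, 6.78 and 7.21 CPM in LN. Lta, the lymphotoxin alpha gene, was at 0.919, 1.11 and 0.702 CPM in LP and 61.7, 15.5 and 14.8 CPM in LN. Tnfsf14, which encodes LIGHT, was at 0.679, 0.0408 and 0.148 CPM in LP and 19.2, 1.07 and 2.66 CPM in LN. The fifth, Ltb, the lymphotoxin beta gene, which was named after its values were seen, was at 100.2, 3.45 and 28.4 CPM in LP and 586, 100.7 and 159 CPM in LN. These ligands, like Tnfrsf4 and Tnfrsf9, are also expressed by T cells, whose 10 marker genes summed to 7.38 to 41.4 CPM in LP and 291 to 660.1 CPM in LN; the part of T-cell RNA was not tested. Tnfsf13b, which encodes BAFF, was lower in every subset (-3.89, -3.05 and -4.13).

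Of 17 NF-kB target genes, 9 rose and 2 fell in CD11b+ DCs, 13 rose and 0 fell in CD103+ DCs and 11 rose and 3 fell in DP DCs, with list medians of 1.06, 2.63 and 2.04 on the log2 scale. The chemokine gene Ccl5 rose by 5.62, 8.999 and 7.18, the adhesion molecule gene Vcam1 by 3.01, 6.12 and 5.97, Gadd45b, a stress-response and survival gene, by 1.95, 5.48 and 2.95 and Il12b, which encodes a subunit shared by the cytokines IL-12 and IL-23, by 3.48, 2.63 and 4.23 in CD11b+, CD103+ and DP DCs. Il12b had its highest mean in LN CD103+ DCs (401 ± 46.4 CPM). Ccl22 and Cd83 stand in the target and the maturation lists, and Ccl5 is also expressed by T cells.

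**Figure D5:**
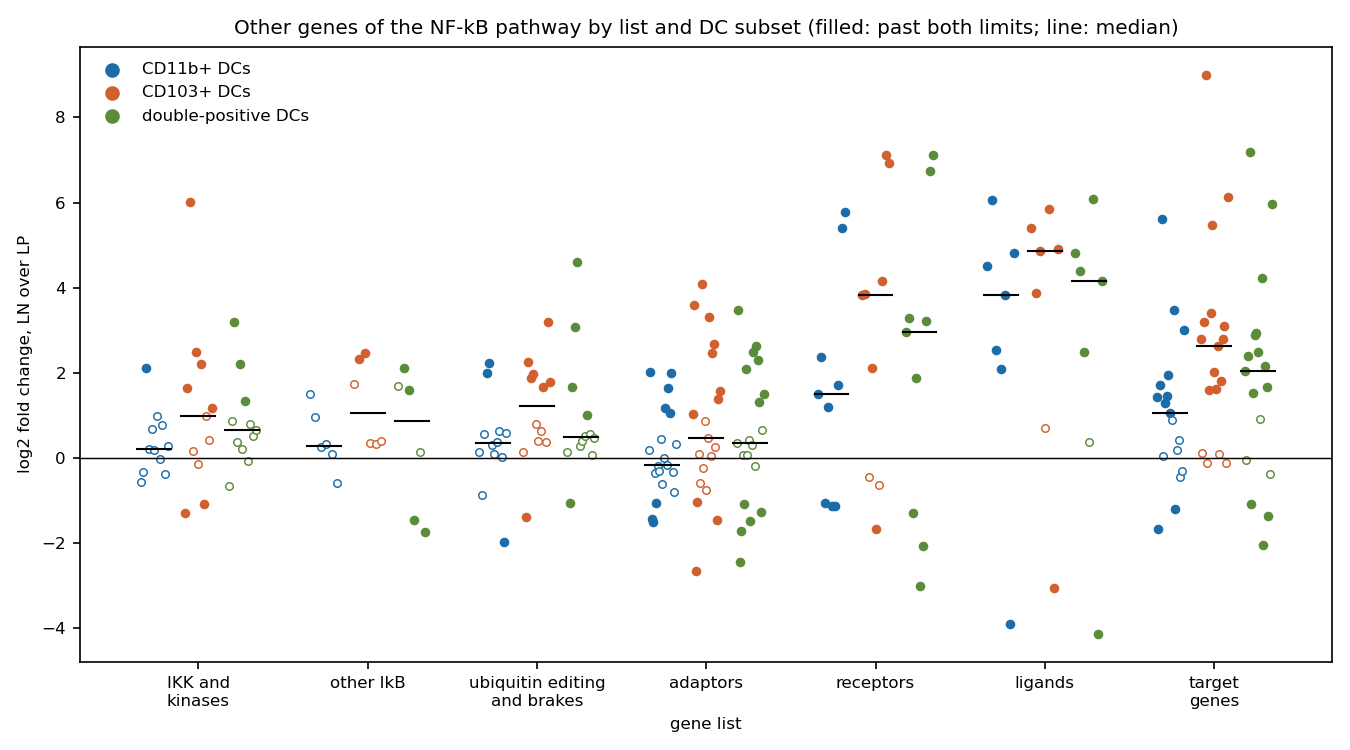
Log2 fold change of LN over LP for each gene of the 7 other pathway lists, in CD11b+ (blue), CD103+ (orange) and DP (green) DCs; filled points passed the adjusted p and fold limits and lines mark the list median. Receptors, ligands and target genes have medians above 1 in every subset, while adaptors spread to both sides of 0 with a median of -0.18 in CD11b+ DCs.

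Among the 17074 genes tested, those whose log2(CPM + 1) over the 18 libraries was most like that of Relb were Adora2a, which encodes an adenosine receptor (Pearson r = 0.995), Traf1 (r = 0.995) and Mif4gd (r = 0.994). Traf1 was most like Relb (r = 0.995), Mif4gd (r = 0.994) and Marcksl1 (r = 0.994). Nfkbia had less close neighbours, the membrane protein genes Tmem176a (r = 0.969) and Tmem176b (r = 0.968) and Tcp11l1 (r = 0.966). The libraries fall into 2 tissues and share their scaling, so these values are a description.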

How the data were processed

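RNA-seq counts were analysed for 18 mouse DC libraries in 6 groups of 3. The authors deposited raw read counts per Ensembl gene; the labels name STAR 2.6 and FastQC 0.11.7 and the build GRCm38, and the study's methods describe SMART-Seq v4 libraries, uniquely aligned reads, Ensembl annotation and unstranded gene counts for its DC libraries. A gate of live CD45+ CD64- MHCII-high CD11c+ cells is given there for other DC libraries of the study; for the LN cells no gate is stated in the sources used here. Counts were filtered with filterByExpr, scaled by TMM and fitted over all genes and libraries with edgeR 4.0.16 (glmQLFit, glmQLFTest; R 4.3.3; Python 3.11.15 for summaries), with Benjamini-Hochberg adjustment over 17074 genes and no covariate. A call needed an adjusted p under 0.01 and a fold over 2. Alternatives were DESeq2 1.42.0 and its size factors, total counts, other count filters (100 reads in 3 libraries), an adjusted p under 0.05, only the libraries compared, a replicate block and leaving out each library. Group means are of CPM on TMM-scaled library sizes; shares use the length of the principal transcript. Of the 54232 identifiers 54165 matched a gene symbol.

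The members and gene lists were chosen with earlier results of these data known. Beside the 10 genes, the text names other pathway genes called in all 3 tissue comparisons (at most 4 per list and direction, by mean absolute log2 fold change), Map3k14, Traf3, Cd40, Ltbr, Bcl3, Nfkbib, Nfkbid, Nfkbiz, Tnip1, Tnip2 and Tnip3 whatever they did, and the 3 genes most like Relb, Nfkbia and Traf1. Psd was added for its overlap with Nfkb2, and an adaptor gene that the rule names is not reported here. Same-numbered libraries deviated together in LP CD11b+ with CD103+ (r = 0.136 to 0.197) and LP CD103+ with DP (0.109 to 0.176), for which the replicate number was taken to pair libraries on the data alone; the other pairs of groups did not all exceed 0.1 (−0.0903 to 0.234). Replicates of a group differed by 14.9 to 64.9 in chi-square per gene, so none was a repeat sequencing of another library. This cannot tell separate animals from separate preparations of the same sample. No count was turned into an interval: errors are the SD or SE over 3 libraries.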

Additional observations from a re-analysis of the deposited data

Results flagged for a closer look

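The difference between LN and LP was itself different between DC subsets for all 10 genes, by edgeR's F test with adjustment over all genes. On leaving out 1 library at a time, 9 to 10 genes passed this test. Pairs of subsets are given where the log2 difference between their tissue differences passed both limits. Among the non-canonical subunits, Relb (adjusted p = 5.6e-08) differed by 2.35 between CD103+ and CD11b+ DCs and by 1.82 between DP and CD11b+ DCs. Nfkb2 (adjusted p = 1.0e-07) differed by 1.96 and 1.35 in the same pairs.

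Of the canonical subunits, Rela (adjusted p = 2.3e-07) differed by 1.46 and 1.25 in these pairs, and Rel (adjusted p = 0.0046) by 1.21 between CD103+ and CD11b+ DCs. Nfkb1 (adjusted p = 1.2e-06) differed by -1.76 between DP and CD11b+ DCs and by -1.44 between DP and CD103+ DCs, and it was called lower in LN in DP DCs.

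Of the inhibitors, Nfkbia (adjusted p = 1.6e-06) differed by 2.08 between CD103+ and CD11b+ DCs and by -1.23 between DP and CD103+ DCs. Nfkbie (adjusted p = 1.7e-06) differed by 1.63 between CD103+ and CD11b+ DCs. Tnfaip3 (adjusted p = 9.4e-07) differed by 2.71 between CD103+ and CD11b+ DCs and by -2.73 between DP and CD103+ DCs. Birc3 (adjusted p = 1.4e-07) differed by 1.59 between CD103+ and CD11b+ DCs and 1.43 between DP and CD11b+ DCs, and Traf1 (adjusted p = 2.9e-06) by 1.55 and 1.37.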

How the results depend on the processing

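On recomputing, 381 counts of called genes stayed within 1.5 times the reported count and 6 did not, and 2097 log2 fold changes kept their direction and their side of the limits, while 40 lost a call, 15 gained a call and 2 reversed. Leaving out 1 library at a time gave 2 to 5 genes for LN against LP in CD11b+ DCs and 2 to 4 for all 3 subsets; both were 2 without the third LN CD11b+ library and 2 without both libraries that carry Xist and Ddx3y, a setting chosen after seeing the data. In these settings the log2 fold change of Nfkbie in CD11b+ DCs was −0.0905 and −0.0844 (−0.0905 to 0.1609 on leaving out 1 library at a time). With total counts, 1 gene was called between LN CD103+ and LN CD11b+ DCs and 3 between LN DP and LN CD11b+ DCs. Fitting the replicate block gave 4, 9 and 8 genes for LN against LP in CD11b+, CD103+ and DP DCs (Tnfaip3 was lost in DP DCs, 0.99), 3 for all 3 subsets, and 5 between LP CD103+ and LP CD11b+ DCs, where Nfkbie was gained; it changed no other count of genes. Outside the LP pairs named above the numbers are not shown to pair libraries. With other scaling 28 group means moved by more than 1 SD and 92 did not. Among the log2 fold changes followed, calls that changed under an alternative setting were of Nfkbie, Tnfaip3, Nfkb2, Rel, Birc3, Rela and Relb. Between LN subsets, and for differences between tissue differences, only genes called in the main fit were followed. Genes that gained a call there are not in this list or in the 15 above. Between LN CD103+ and LN CD11b+ DCs 6 genes were called with DESeq2 size factors, against 5 in the main fit. Traf1 lay closest under the fold limit there (0.97). Birc3 in CD11b+ DCs was at 0.9913 without the third LN CD11b+ library and 0.9968 without both libraries that carry Xist and Ddx3y.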
